A study of Octopus bimaculoides with 16 samples.

Results

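The genes that set cells of the octopus sucker rim apart from the skin of the mantle were described here. A gene was taken when it had at least 10 CPM (reads scaled to a library total of 1000000) in rim cells or mantle skin and when the libraries were at least 4-fold apart after adding a pseudocount of 1 CPM. Of 15842 genes in the deposited table, 8891 reached 10 CPM in rim cells or skin. Among these, 552 genes (6.21%) stood higher in rim cells and 318 (3.58%) stood lower, 870 in all. Each of them was then set beside the whole sucker cup, to see whether the cup differed from skin in the same way.

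Bulk messenger RNA was sequenced from organs dissected by hand from Octopus bimaculoides, the California two-spot octopus. The rim library was made from dissociated cells of sucker rims, and its title begins with the digit 8 before the word suckers, which the labels do not explain, and names no arm. The 2 whole cup libraries, labelled automated and manual, both came from arm R1; the labels do not say what those words refer to. The other libraries were mantle skin, olfactory organ, eye, statocyst and optic lobe of the brain, with 1 library each. No treatment, animal, age or sex is named for any of them. The rim library thus differed from the skin library in dissociation as well as in tissue, and the part of dissociation cannot be told apart from that of tissue. With 1 library a tissue there is no replicate, no test was made, and intervals cover the counting of reads only.

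Octopus suckers hold fast to surfaces and also touch and taste them. Sensory cells lie in the epithelium of the sucker and include cells with chemotactile receptors, a family related to acetylcholine receptors that responds to molecules on contact. Mantle skin is a body covering with mucous cells, muscle and the pigment and reflecting cells that change its colour. The statocyst senses gravity and movement, the olfactory organ senses waterborne chemicals, and the optic lobe processes input from the eye. The identifiers in the files carry no functional name, so the tissue labels could not be checked against marker genes, and no gene below is assigned a role. In bulk RNA, fewer cells of a type and less RNA per cell cannot be told apart.

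The rim library held 36916825 reads and the skin library 4782744, so that 1 read was worth 0.0271 CPM in rim cells and 0.209 CPM in skin. The whole cups held 11830859 (automated) and 8293516 (manual) reads, and the remaining libraries between 5373482 and 15167497. A count of 0 allowed a level of up to 0.0999 CPM in rim cells and 0.771 CPM in skin, by the exact 95% Poisson limit. Where a gene had no read in the lower library, its ratio was computed against a floor of 3 reads in that library and is written as "at least". That floor is a convention and lies under the 95% limit of a count of 0. The exact 95% lower limit of the ratio, given after it, is therefore smaller and is the bound that counting error allows. Plain ratios are ratios of CPM without pseudocount, each with its exact 95% Clopper-Pearson interval in parentheses. Log2 ratios of rim cells or cups to skin, the calls and classes, and fold comparisons between rim cells and cups carry the pseudocount of 1 CPM unless said otherwise. They have no interval and are smaller than the plain ratio for low genes.

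Most genes had like levels in rim cells and skin. The median log2 ratio of rim cells to skin over the 8891 genes was 0.02, the middle 50% of genes lay between -0.41 and 0.59, and 6776 genes (76.2%) were within 2-fold. Both libraries reached 10 CPM for 7237 genes. The correlation of log2(CPM + 1) across the 8891 genes was 0.693 (Pearson) and 0.778 (Spearman), a description over genes that share 2 libraries. The 552 higher genes had a median log2 ratio of 2.96 and the 318 lower genes one of -3.79. With the pseudocount, 122 higher genes and 140 lower genes were at least 16-fold from skin. Without it, and with genes lacking a read at the 3-read floor, these numbers were 226 of 552 (40.9%) and 199 of 318 (62.6%), so the lower genes were more often far from skin on both scales. The 3-read floor was 0.0813 CPM in rim cells and 0.627 CPM in skin, so ratios could run higher in the lower genes. Low reads bear differently on each direction: 149 of the 552 higher genes had 3 reads or fewer in skin, and 51 of the 318 lower genes had 3 or fewer in rim cells.

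**Figure D1:**
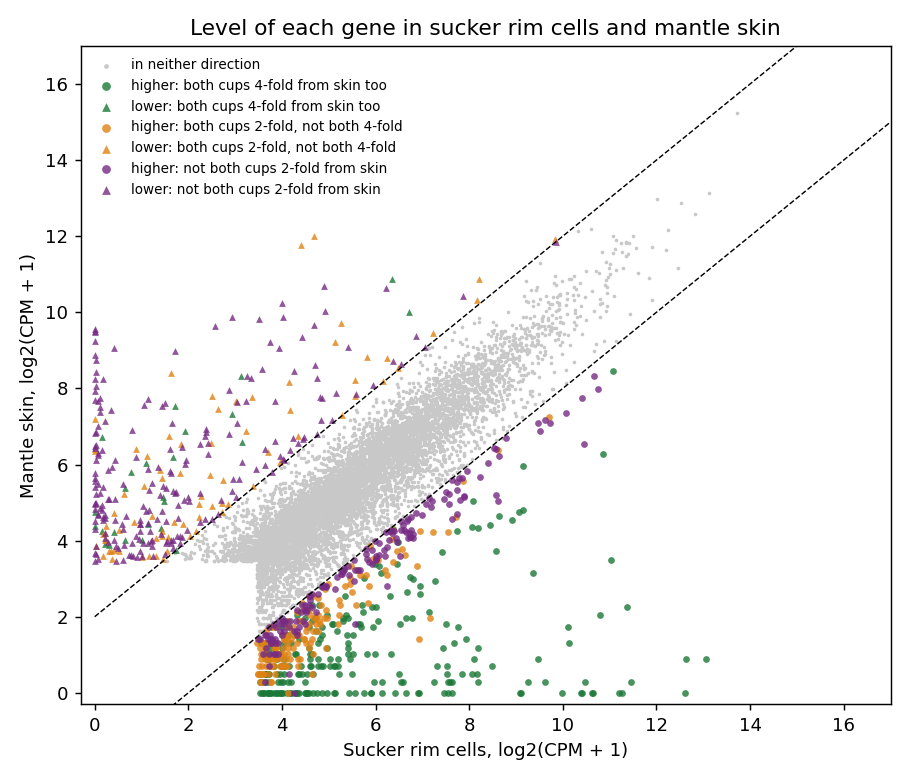
Level of each of the 8891 genes in sucker rim cells (horizontal axis) and mantle skin (vertical axis), both as log2(CPM + 1), 1 point a gene and 1 library a tissue. Dashed lines mark 4-fold, circles are the 552 genes higher in rim cells, triangles are the 318 lower genes, and colours give the behaviour of the whole cups; the lower genes include a column of 27 with no read in rim cells.

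A gene was said to follow the whole cup when both cup libraries were also at least 4-fold from skin in the same direction. It was said to go part way when both were at least 2-fold from skin but not both 4-fold, and otherwise not to follow. Of the 552 higher genes, 235 (42.6%) followed, 159 (28.8%) went part way and 158 (28.6%) did not follow. Of the 318 lower genes, 25 (7.86%) followed, 78 (24.5%) went part way and 215 (67.6%) did not follow. No gene in either direction stood 4-fold from skin in the opposite direction in both cups. Over all 8891 genes, both cups were 4-fold above skin for 247 (2.78%) and 4-fold below it for 26 (0.292%). Rim cells and cups were compared with the same skin library, so a skin value that is high or low moves both ratios together.

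**Figure D2:**
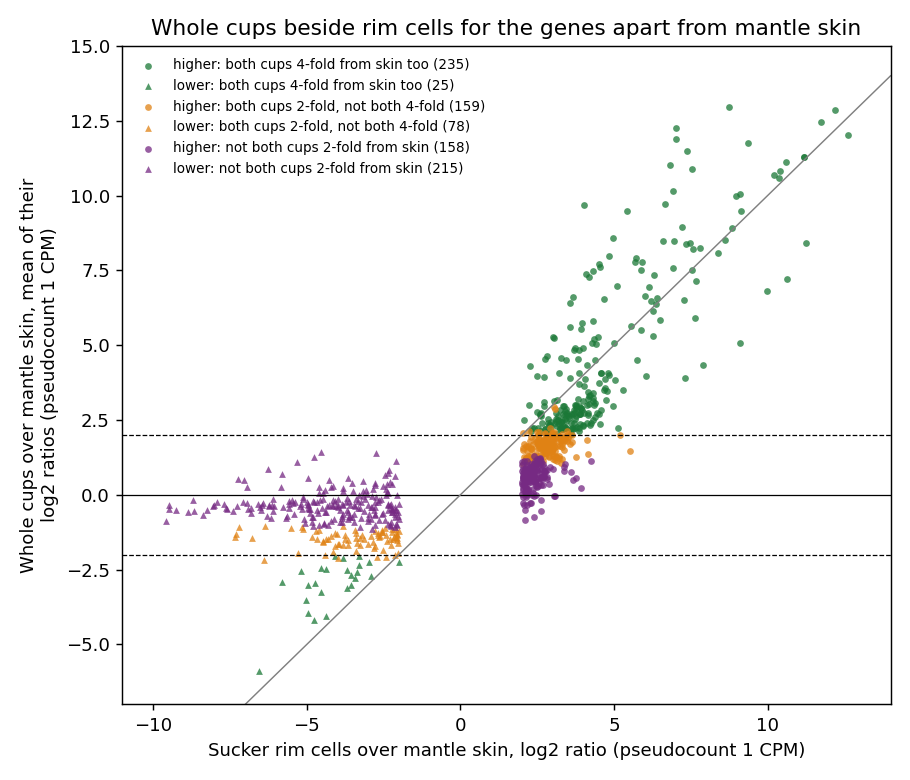
Log2 ratio of sucker rim cells to mantle skin (horizontal axis) beside the mean log2 ratio of the automated and manual whole cups to the same skin library (vertical axis), for the 870 genes 4-fold apart between rim cells and skin. Dashed lines mark 4-fold for the cups, the grey line marks equal ratios, and numbers in the legend count genes; most circles lie above 0 on the vertical axis, while the triangles gather just under 0.

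The higher genes that the whole cups share had the largest ratios of rim cells to skin. Ratio and class rest on the same skin value, and a low one raises the ratio and eases following, so this is in part built in. With the pseudocount, all 52 genes at least 64-fold above skin were among the 235 that followed, as were 117 of the 122 at 16-fold. Without it, 69 of the 70 genes at 64-fold and 184 of the 226 at 16-fold were followers. Their median log2 ratio of rim cells to skin was 3.998, against 2.81 for the part-way genes and 2.35 for those that did not follow. These 235 genes took 6.94% of the reads of rim cells, 15.9% and 15.6% of those of the automated and manual cups, and 0.105% of those of skin. Skin had no read for 57 of them. With such genes set to the 3-read floor, the median log2 ratio of CPM without pseudocount was 4.92.

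LOC106873015 had 6212 CPM in rim cells, 4238 and 4150.4 CPM in the automated and manual cups and no read in skin, at least 9904-fold higher than the floor of the skin library (lower limit 8054). LOC106869022 was the most abundant of all 870 genes in rim cells, with 8569 CPM there, 13722 and 13687 CPM in the automated and manual cups and 4 reads (0.836 CPM) in skin, a ratio of 10246 (4002 to 37604). LOC106869027 resembled it, with 6316 CPM in rim cells, 10661 and 10116 CPM in the cups and 4 reads in skin, a ratio of 7552 (2949 to 27717). The other libraries hardly held these 3 genes: the highest count was 3 reads, of LOC106869022 in optic lobe. LOC106882063 was at nearly one level in rim cells (2343 CPM) and cups (2577 and 2457 CPM) and had no read in any of the other 5 libraries, at least 3736-fold higher than the skin floor (lower limit 3038).

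LOC106882097 stood apart from these by its level in the cups. It had 2448 CPM in rim cells, 379 CPM in the automated cup and 310.4 CPM in the manual cup, no read in skin and 4 reads in olfactory organ. It was at least 3902-fold higher in rim cells than the skin floor (lower limit 3173). It therefore followed the cup by the rule and was yet more than 4-fold above both cups, as were 9 of the 235 genes that followed. The reverse held for 24 of the 235, for which rim cells lay below both cups by 4-fold or more. Those 24 genes took 0.625% of rim reads, 8.85% and 8.58% of the reads of the automated and manual cups and 0.00217% of skin reads. Their level in rim cells ran from 10.6 to 2093 CPM with a median of 36.2 CPM, against medians of 537 and 551 CPM in the cups. For the 552 higher genes as a whole, both cups lay below rim cells for 457 and above rim cells for 87, and those 87 were all among the followers.

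The part-way genes were of lower level. Their median was 18.9 CPM in rim cells and 1.88 CPM in skin, and they took 0.619% of rim reads, 0.268% and 0.369% of the reads of the cups and 0.0805% of skin reads. LOC106879789 had the largest log2 ratio, 5.51, with 121 CPM in rim cells, 4.40 and 9.16 CPM in the automated and manual cups and 8 reads (1.67 CPM) in skin, a ratio of 72.2 (36.6 to 167). LOC106872269 had 142 CPM in rim cells, 14.5 and 15.2 CPM in the cups and 2.93 CPM in skin, a ratio of 48.4 (28.8 to 88.5), and olfactory organ was at the level of the cups with 16.1 CPM. For both genes the cups lay nearer to skin than to rim cells on the log2 scale. LOC106883291 had 24.0 CPM in rim cells and 2 reads in skin, a ratio of 57.3 (15.8 to 474). LOC106868278 had 16.6 CPM in rim cells and no read in skin, at least 26.4-fold higher (lower limit 21.4).

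LOC106876344 also had its rim level, 29.8 CPM, well above the cups (3.80 and 5.06 CPM) and skin (6 reads, 1.25 CPM), a ratio of 23.7 (10.9 to 64.8), but its highest level was 259.8 CPM in eye. The most abundant part-way gene was LOC106874088, with 833 CPM in rim cells, 558 and 575 CPM in the cups and 152 CPM in skin, a ratio of 5.46 (5.08 to 5.89). LOC106875818 had 389 CPM in rim cells and 82.4 CPM in skin, a ratio of 4.72 (4.27 to 5.23). Its cups disagreed, with 196 CPM for automated and 688 CPM for manual, and olfactory organ was level with the manual cup (693 CPM). LOC106876047 had 232 CPM in rim cells, 129 and 146 CPM in the cups and 46.0 CPM in skin, a ratio of 5.05 (4.42 to 5.80).

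The 158 higher genes that did not follow were of moderate to high level in rim cells and mostly well measured in skin. Their medians were 49.2 CPM in rim cells, 13.6 CPM in the cups and 8.89 CPM in skin, and skin had 10 reads or more for 133 of them. They took 2.23% of rim reads, 0.549% and 0.616% of the reads of the automated and manual cups and 0.374% of skin reads. Their ratios were modest: 1 of the 158 passed 16-fold with the pseudocount and 5 passed it without, and the median log2 ratio was 2.35. Both cups were within 2-fold of skin for 123 of them, and for 45 rim cells lay 4-fold or more above both cups. The class itself asks that the cups are not both 2-fold above skin, so the 123 are in part built in. Their share over all 8891 genes was not counted. The lower 95% limit of the plain ratio reached 4-fold for 86 of the 158, beside 229 of the 235 that followed.

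LOC106869364 is the clearest of these by level. Rim cells held 1396 CPM of it, the cups 101 and 116 CPM and skin 91.8 CPM, a ratio of 15.2 (13.8 to 16.7). Statocyst (1287 CPM) and eye (859.5 CPM) were near the rim level, while olfactory organ had 138 CPM and optic lobe 56.4 CPM. LOC106876689 was the most abundant gene of this class in rim cells, with 1713 CPM there, 393 and 461 CPM in the cups and 251 CPM in skin, a ratio of 6.83 (6.45 to 7.23). LOC106872232 had 1628 CPM in rim cells, 443 and 592 CPM in the cups and 318 CPM in skin, a ratio of 5.12 (4.87 to 5.39), and reached 1167 CPM in optic lobe. LOC106874389 had 392 CPM in rim cells, 31.0 and 94.4 CPM in the automated and manual cups and 31.8 CPM in skin, a ratio of 12.3 (10.5 to 14.6).

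Among genes of low level in this class, LOC106869352 had 46.1 CPM in rim cells, 4.14 and 4.22 CPM in the cups and 2.51 CPM in skin, a ratio of 18.4 (10.5 to 35.6). LOC106869339 had 16.8 CPM in rim cells, 10 reads in each cup library and 2 reads in skin, a ratio of 40.2 (11.1 to 332). The classes of LOC106869339 and LOC106883913 rest on few reads and on the pseudocount. LOC106883913 had 18.2 CPM in rim cells, 17 reads in the automated and 8 in the manual cup and none in skin. It was at least 29.1-fold higher than the skin floor (lower limit 23.6), and its highest level was 98.9 CPM in olfactory organ.

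For most genes lower in rim cells than in skin, both whole cups were within 2-fold of skin. This held for 194 of the 318 lower genes, and for 217 rim cells lay 4-fold or more below both cups. How many of all 8891 genes had both cups within 2-fold of skin was not counted. The median log2 ratio of cups to skin was -0.61 for the lower genes and -0.18 over all 8891 genes. In the cups the lower genes as a set thus lay further below skin than the median gene. The 318 genes took 0.534% of rim reads, 4.53% and 4.56% of the reads of the automated and manual cups and 6.57% of skin reads. Their medians were 1.72 CPM in rim cells, 29.4 CPM in the cups and 48.1 CPM in skin. In rim cells 121 of them lay under 1 CPM, and for 27 no read was found among the 36916825 of that library. With those 27 at their lower bound, the median log2 ratio of skin to rim cells in CPM without pseudocount was 4.65.

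The 215 lower genes that did not follow held 39 of the 46 lower genes at least 64-fold below skin with the pseudocount, 78 of the 102 without it, and 22 of the 27 without a rim read. As shares, 36.3% of these non-followers and 32.1% of all lower genes were at 64-fold without the pseudocount, and so were 8 of the 25 followers. They took 0.272% of rim reads, 3.58% and 3.63% of the reads of the cups and 3.86% of skin reads. The 5 with the largest log2 ratios had no rim read. LOC106872275 had none in rim cells, 414 and 407 CPM in the automated and manual cups and 759 CPM in skin, at least 9337-fold lower in rim cells (lower limit 7589.6). LOC106869401 had none in rim cells, 585 and 547 CPM in the cups and 723 CPM in skin, at least 8892-fold lower (lower limit 7228). LOC106879077 had none in rim cells, 537 and 481 CPM in the cups and 713 CPM in skin, at least 8776-fold lower (lower limit 7133). LOC106880508 and LOC106879085 were likewise without a rim read, with 608 and 467 CPM in skin.

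These 5 genes were much alike in the other libraries. The pooled cups stood at 54.2% of the skin level for LOC106872275 and at between 67.2% and 78.8% for LOC106869401, LOC106879077, LOC106880508 and LOC106879085. Those 4 genes had no read in olfactory organ or optic lobe, at most 2 reads in eye, and between 7 and 25 reads in statocyst. LOC106872275 differed from them in olfactory organ, where it had 53.8 CPM. A wider set shared the pattern: 67 of the 318 lower genes lay under 1 CPM in rim cells, olfactory organ, eye and optic lobe together, and 62 of the 67 did not follow the cup. Any of the 8891 genes under 1 CPM in rim cells is called lower by the rule, so the 67 are all such genes among the 8891. In skin those 67 ran from 10.04 to 723 CPM with a median of 48.9 CPM, and the cups had medians of 38.5 CPM (automated) and 34.7 CPM (manual). Statocyst, which the choice of the 67 did not use, had at most 4.75 CPM of any of them.

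Abundant genes of this class were lower in rim cells without being absent. LOC106881016 had 28.8 CPM in rim cells, 2719.5 and 2677 CPM in the automated and manual cups and 1654 CPM in skin, a ratio of skin to rim cells of 57.3 (53.8 to 61.2). It was thus higher in both cups than in skin, as were 38 of the 215 genes. LOC106872354 had 73.8 CPM in rim cells, 1008 and 1158 CPM in the cups and 1599.5 CPM in skin, a ratio of skin to rim cells of 21.7 (20.7 to 22.7), and 1884 CPM in eye. LOC106870394 was at the threshold itself, with 921 CPM in rim cells, 2817 and 3086 CPM in the cups and 3689 CPM in skin, a ratio of skin to rim cells of 4.01 (3.93 to 4.08). Its log2 ratio of -2.001 became smaller than 4-fold with a pseudocount of 5 CPM and with the reads thinned to the skin total. In 5 lower genes both cups were 2-fold or more above skin, and their rim levels ran from 0.840 to 34.5 CPM against 58.1 to 236 CPM in skin.

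The 78 lower part-way genes included the most abundant lower genes of skin. LOC106868320, LOC106868323 and LOC106868319 had closely like patterns. LOC106868323 had 24.8 CPM in rim cells, 1626 and 1682 CPM in the automated and manual cups and 4089.7 CPM in skin, a ratio of skin to rim cells of 165 (154 to 176). LOC106868320 had 20.3 CPM in rim cells, 1312 and 1278 CPM in the cups and 3474 CPM in skin, a ratio of 171 (159 to 185). LOC106868319 had 2.09 CPM in rim cells, 123 CPM in each cup and 339 CPM in skin, a ratio of 162 (129 to 207). Eye was the next library after skin for all 3, at 2681, 2035 and 227 CPM for LOC106868323, LOC106868320 and LOC106868319, and olfactory organ was about as low as rim cells, at 17.5, 21.6 and 1.68 CPM. The files do not say whether the 3 are similar copies among which reads could be split, so their separate values are uncertain.

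LOC106875418 and LOC106872268 had no rim read. LOC106875418 had 67.0 and 70.9 CPM in the cups and 146 CPM in skin, at least 1801-fold lower in rim cells (lower limit 1461), and LOC106872268 had 14.9 and 20.6 CPM in the cups and 83.4 CPM in skin, at least 1027-fold lower in rim cells (lower limit 831). LOC106868256 was close to the threshold at a high level, with 916 CPM in rim cells, 1563 and 1586 CPM in the cups and 3873 CPM in skin, a ratio of skin to rim cells of 4.23 (4.15 to 4.31).

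The 25 lower genes that followed the cup were few, and 11 of them were highest in optic lobe. They took 0.0228% of rim reads, 0.0636% and 0.0629% of the reads of the automated and manual cups, 0.440% of skin reads and 13.7% of optic lobe reads. LOC106876298 had 4 reads (0.108 CPM) in rim cells, 7 and 8 reads in the automated and manual cups and 104 CPM in skin, a ratio of skin to rim cells of 961 (373 to 3541). It reached 65721 CPM in optic lobe and 7983 CPM in eye. LOC106875676 had 2.30 CPM in rim cells, 23.2 and 24.2 CPM in the cups and 186 CPM in skin, a ratio of 80.7 (64.6 to 102), and 29735 CPM in optic lobe. Over the 11 genes, which ran from 809 to 65721 CPM in optic lobe, the skin level was between 0.158% and 2.53% of the optic lobe level with a median of 0.919%. Whether optic lobe RNA or reads were present in the skin library was not tested.

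The other named followers were not highest in optic lobe. LOC106867894 had 81.2 CPM in rim cells, 206 and 194 CPM in the cups and 1891 CPM in skin, a ratio of skin to rim cells of 23.3 (22.3 to 24.3), and at most 36.8 CPM in any other library. LOC106879616 had 104 CPM in rim cells, 247 and 248 CPM in the cups and 1035 CPM in skin, a ratio of 9.96 (9.55 to 10.4). LOC106883352 had 7.69 CPM in rim cells, 53.3 and 53.4 CPM in the cups and 317 CPM in skin, a ratio of 41.3 (36.3 to 47.0), and was highest in olfactory organ with 827 CPM. LOC106876216 had 0.704 CPM in rim cells, 4.40 and 3.38 CPM in the cups and 54.6 CPM in skin, a ratio of 77.5 (51.7 to 121), and reached 1564 CPM in statocyst. LOC106879655 had 2.79 CPM in rim cells, 13.9 and 13.5 CPM in the cups and 117 CPM in skin, a ratio of 41.9 (33.9 to 52.2), beside 105 CPM in olfactory organ.

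**Figure D3:**
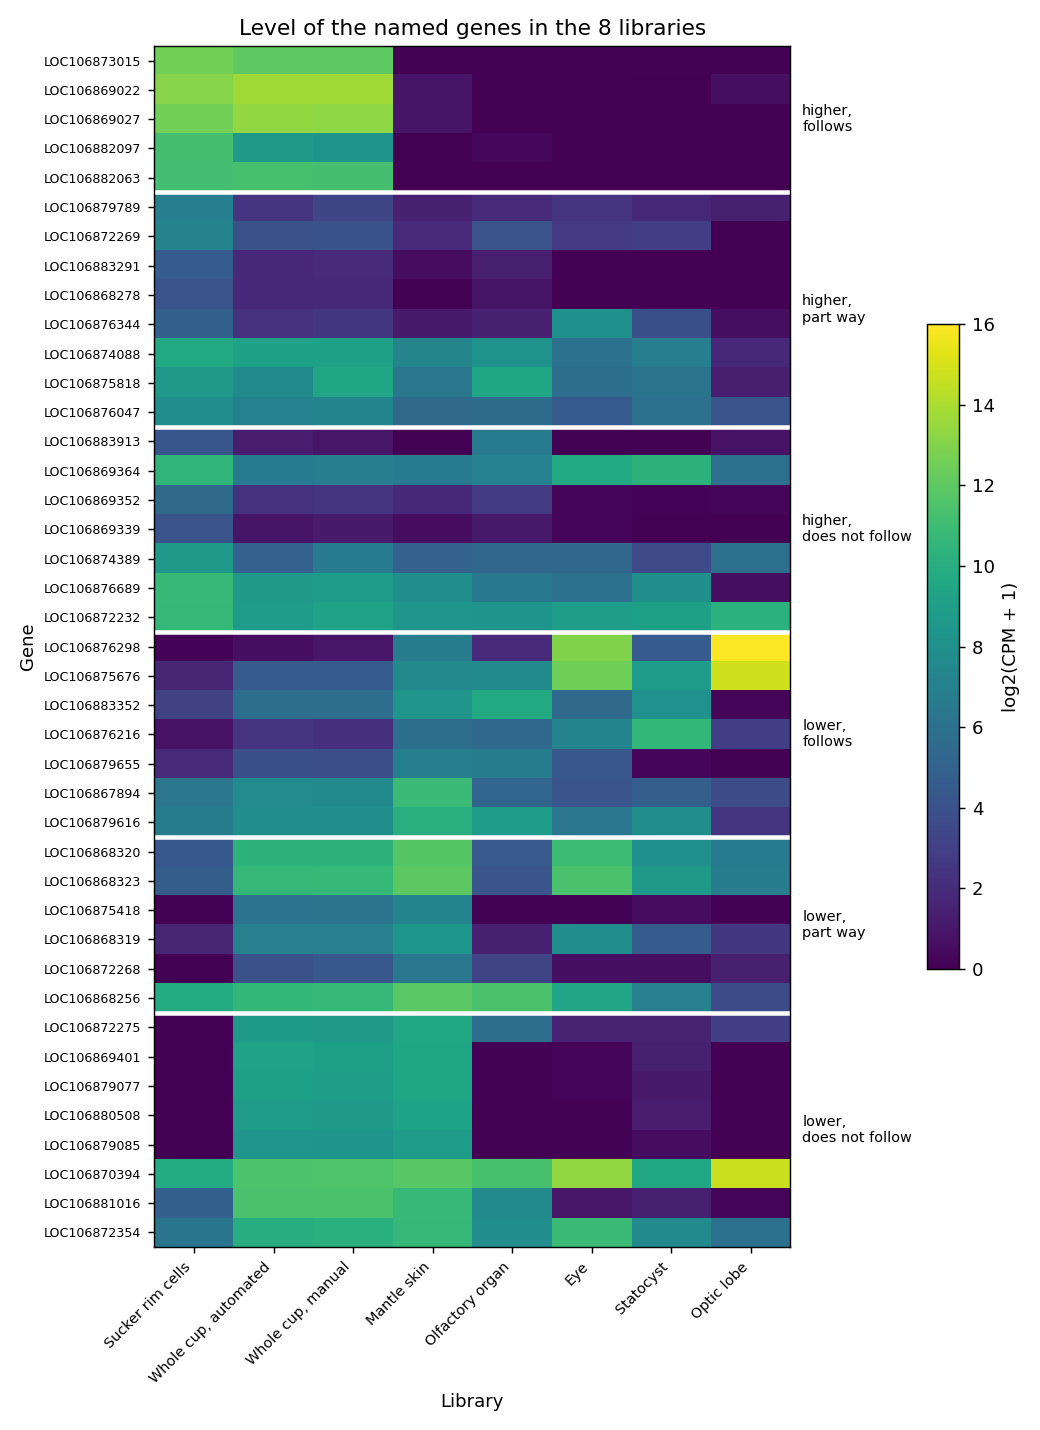
Level, as log2(CPM + 1), of the 41 genes named by rule (down the page, grouped by direction and by whether they follow the whole cup) in each of the 8 libraries (across). The 5 higher genes that follow are bright in rim cells and both cups and dark elsewhere, and the first 5 lower genes that do not follow are dark in rim cells and bright in both cups and skin.

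The genes were then viewed across all 8 libraries. Of the 552 higher genes, 266 had their highest level in rim cells, 121 in statocyst, 76 in one of the whole cups, 41 in eye, 28 in olfactory organ and 20 in optic lobe. As shares, rim cells, statocyst, the cups, eye, olfactory organ and optic lobe were highest for 48.2%, 21.9%, 13.8%, 7.43%, 5.07% and 3.62% of the higher genes. Over all 8891 genes those shares were 14.2%, 29.7%, 3.24%, 7.10%, 19.6% and 14.7%, so the share of eye was near its background. The rule favours rim cells for these genes, and a higher gene cannot be highest in skin, so the 48.2% is in part built in. The share of higher genes at 10 CPM or more was 35.9% in olfactory organ, 41.7% in the eye library, 44.7% for statocyst and 15.8% for optic lobe, against 88.4%, 80.7%, 78.6% and 65.1% of all 8891 genes. The higher genes took 7.36% of the reads of statocyst, 4.16% of eye, 2.11% of olfactory organ and 0.952% of optic lobe. Skin, at 0.560%, was low by the choice of the genes.

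A set of 63 higher genes lay under 1 CPM in skin, olfactory organ, eye, statocyst and optic lobe alike. Of these 63, 59 followed the cup, 4 went part way and none failed to follow. The 63 were chosen for a low skin level, and the classes compare the cups with skin, so this split is in part set by the choice. The 63 genes ran from 10.9 to 8569 CPM in rim cells with a median of 61.3 CPM, and took 4.26% of rim reads and 6.66% and 6.50% of the reads of the automated and manual cups. At the other end, 55 higher genes reached 10 CPM in all of olfactory organ, eye, statocyst and optic lobe, and 42 of these did not follow the cup. The medians of the 55 were 94.5 CPM in rim cells, 31.6 and 34.0 CPM in the automated and manual cups and 18.4 CPM in skin. Any of the 8891 genes under 1 CPM in skin has 10 CPM or more in rim cells and is called higher by the rule. The 63 are therefore all such genes among the 8891. For the 55 the share over all 8891 was not counted, and optic lobe alone reached 10 CPM for 65.1% of the 8891. The 121 genes highest in statocyst had medians of 27.1 CPM in rim cells, 3.14 CPM in skin and 159 CPM in statocyst.

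Of the 318 lower genes, 158 (49.7%) were highest in skin, 55 in eye, 32 in olfactory organ, 29 in one of the cups, 24 in optic lobe and 20 in statocyst. Eye was thus highest for 17.3% of the lower genes, olfactory organ for 10.1%, the cups for 9.12%, optic lobe for 7.55% and statocyst for 6.29%. Over all 8891 genes, skin was highest for 11.4%, and the background shares of the other libraries are those given above. The rule favours skin for these genes, and a lower gene cannot be highest in rim cells, so the 49.7% is in part built in. Of optic lobe reads the lower genes took 19.3%, and of eye reads 7.82%, beside 6.57% of skin reads. In optic lobe 6 of them, among the 10 most abundant genes of that library, made up 16.2% of its reads, while the median lower gene had 0.558 CPM there. The share of them at 10 CPM or more was 55.3% in olfactory organ, 45.3% in the eye library, 38.1% for statocyst and 25.2% for optic lobe. Under 1 CPM in all 4 of those tissues stood 58 lower genes, of which 53 did not follow the cup. How many of all 8891 genes did so was not counted.

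**Figure D4:**
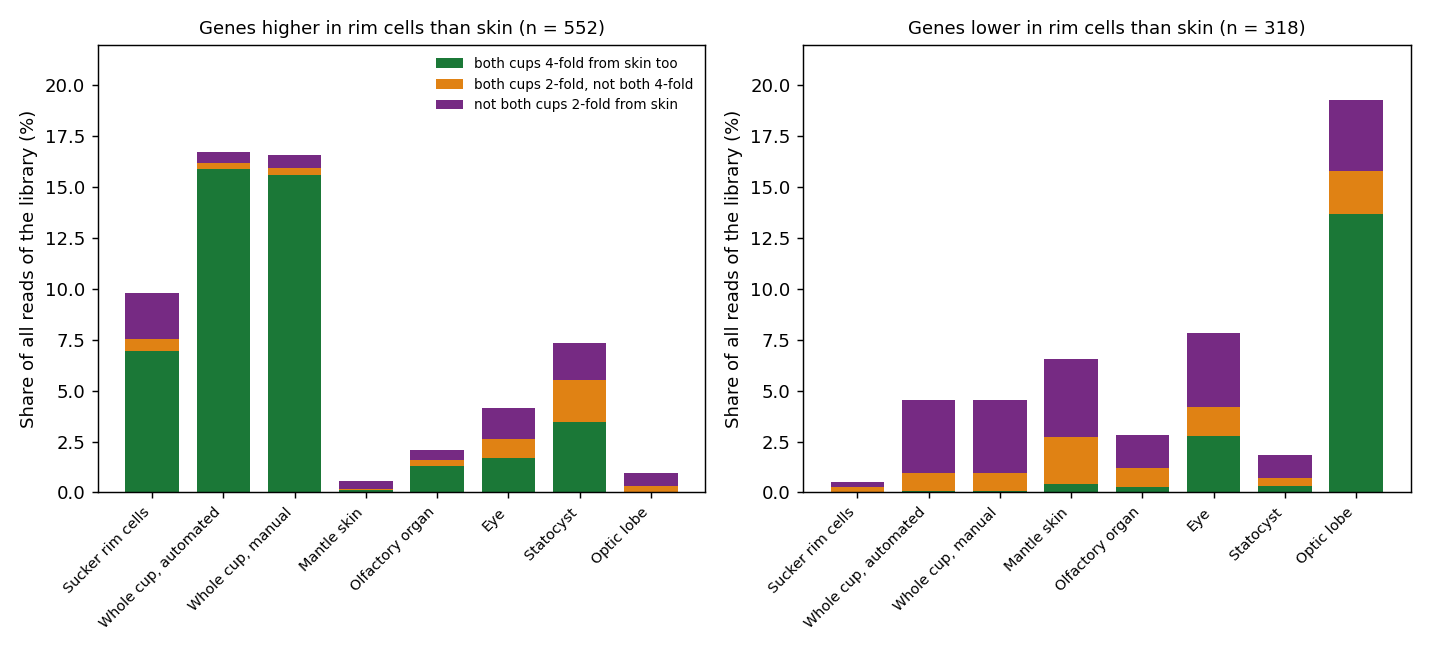
Share of all reads of each library (vertical axis, percent) taken by the 552 genes higher in rim cells than in skin (left) and the 318 lower genes (right), stacked by the behaviour of the whole cups. The higher genes took 9.79% of rim reads, 16.7% and 16.6% of cup reads and 0.560% of skin reads, and the lower genes took 0.534%, 4.53%, 4.56% and 6.57% of those libraries.

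A few genes carried much of these shares. The 10 most abundant higher genes held 38.3% of the reads of all 552 in rim cells, and the 10 most abundant lower genes held 37.7% of the reads of all 318 in skin. At 100 CPM or more in rim cells stood 128 higher genes, of which 69 followed and 49 did not. At 100 CPM or more in skin stood 107 lower genes, of which 7 followed and 74 did not.

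Gene order was read from the reference annotation of assembly ASM119413v2, in which 13929 of the measured genes have a place on a numbered chromosome; the files' own genome build is not stated, so no positions are printed. Of the 552 higher genes, 483 had a place, and the next measured gene was also a higher gene for 43 of 482 (8.92%), while higher genes made up 3.47% of all placed genes. Of the 318 lower genes, 282 had a place, and the next gene was also a lower gene for 46 of 282 (16.3%), while lower genes made up 2.02% of placed genes. The placed genes include genes under 10 CPM in both libraries, which could not be called. Over the 8891 genes that could be called, placed or not, 6.21% were higher and 3.58% lower. Whether genes at 10 CPM or more lie next to each other was not tested. Runs of 2 or more held 81 higher genes in 38 runs and 80 lower genes in 34 runs. There were 3 higher runs and 9 lower runs of 3 genes or more, and these were chosen for naming after their values were seen. Neighbours can be similar copies of one gene, among which the assignment of reads to transcripts can split reads, so the separate values within a run are uncertain.

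The longest higher run had 5 genes, all followers: LOC106869022, LOC106869027, LOC106869021, LOC106873034 and LOC106873033. Beside the 2 abundant genes already described, LOC106869021 had 293 CPM in rim cells, 8825 and 8252 CPM in the automated and manual cups and 6 reads in skin, and LOC106873033 had 183 CPM in rim cells, 3458 and 3332 CPM in the cups and 3 reads in skin. LOC106873034 had 13.2 CPM in rim cells, 7.69 and 8.80 CPM in the cups and no read in skin. Within this run, rim cells were therefore below the cups by differing amounts, or above them. The run of LOC106877137, LOC106868777 and LOC106868776 had 660.4, 1112 and 709.9 CPM in rim cells, levels near those of the cups, and 38, 11 and 4 reads in skin. The run of LOC106877957, LOC106877966 and LOC106873817 had 30.1, 42.2 and 789 CPM in rim cells and 372, 701 and 4196 CPM in the automated cup, with at most 1 read in skin.

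The longest lower run also had 5 genes: LOC106875429, LOC106875418, LOC106875414, LOC106875409 and LOC106875400. Skin had 41.8 to 229 CPM of them, and the cups 25.9 to 189 CPM (automated) and 27.0 to 176 CPM (manual). In rim cells LOC106875418 and LOC106875414 had no read, LOC106875409 had 1 read, LOC106875429 had 1.81 CPM and LOC106875400 had 46.6 CPM. The run of LOC106872272, LOC106872275 and LOC106872268 had no rim read at all, against 243, 759 and 83.4 CPM in skin. The run of LOC106883855, LOC106883853 and LOC106883856 had 1 rim read in all, of LOC106883856, against 89.1, 27.6 and 89.7 CPM in skin. LOC106884081, LOC106884082 and LOC106884083 had 2, 1 and 35 rim reads, against 10.5, 13.6 and 12.1 CPM in skin.

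In the other lower runs of 3 or more, every gene had reads in rim cells. LOC106871602, LOC106878985 and LOC106878986 had 4.52, 115 and 233 CPM in rim cells, while skin had 52.3, 666 and 1376 CPM. LOC106880793, LOC106880792 and LOC106877466 had 1.92, 37.2 and 7.21 CPM in rim cells, while skin had 12.3, 842 and 135 CPM. LOC106881622, LOC106881624 and LOC106881625, all part-way genes, had 5.17, 0.433 and 1.71 CPM in rim cells, while skin had 174, 18.4 and 49.3 CPM. LOC106878990, LOC106879028 and LOC106877330 had 6, 4 and 5 rim reads, against 118, 86 and 82 reads in the far shallower skin library. LOC106879655, LOC106883121, LOC106883122 and LOC106883123 had 2.79, 0.569, 1.87 and 0.325 CPM in rim cells, while skin had 117, 41.0, 14.2 and 12.5 CPM.

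**Figure D5:**
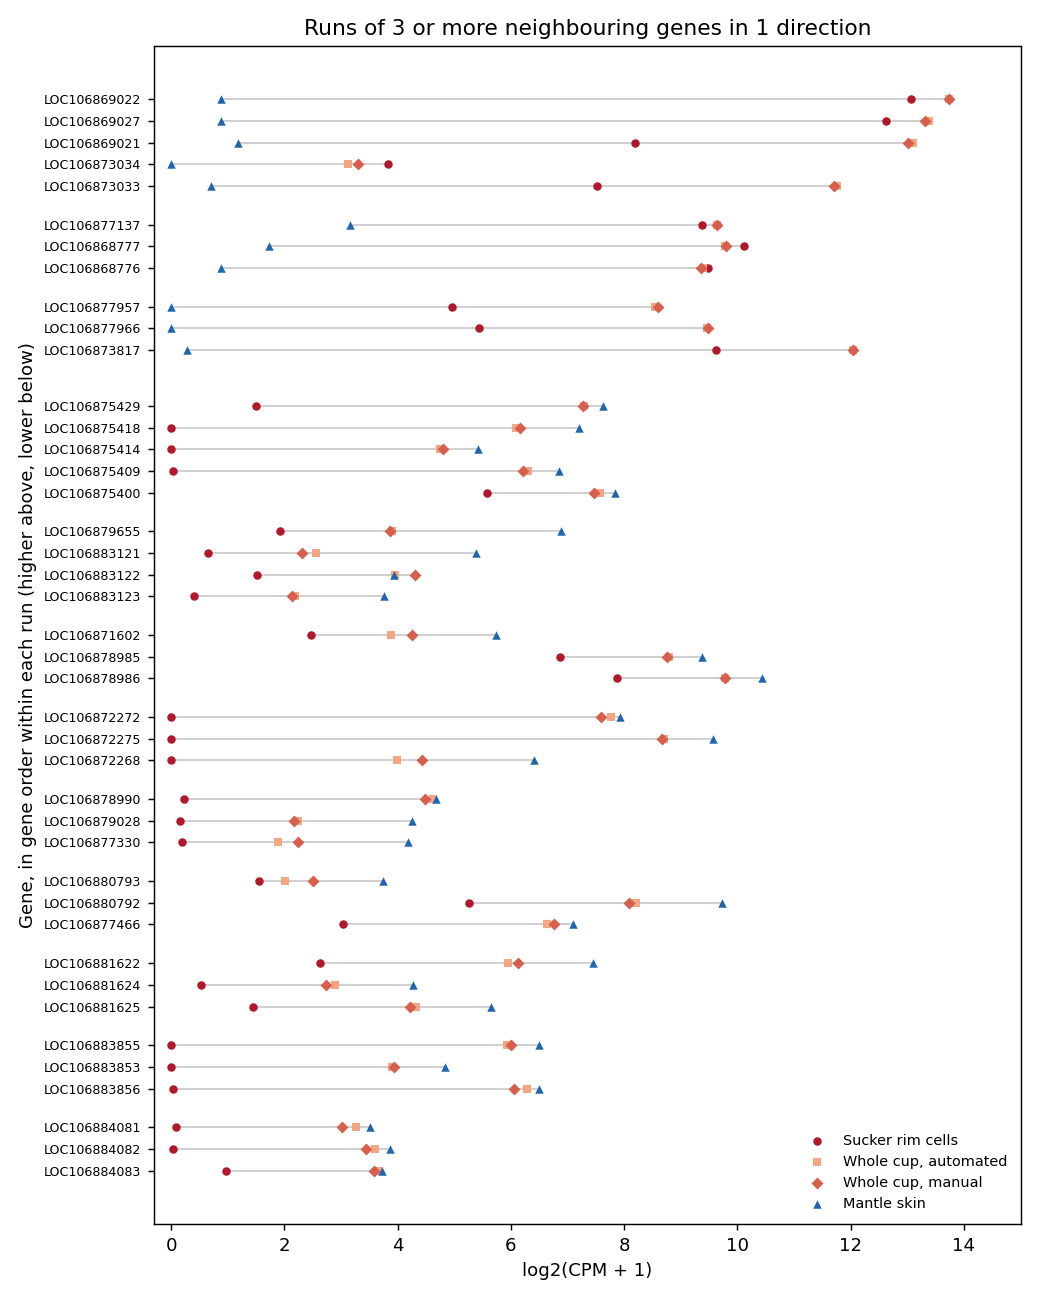
Level, as log2(CPM + 1), of the 41 genes in the 12 runs of 3 or more neighbouring genes that were all higher (top 3 runs) or all lower (the other 9 runs) in sucker rim cells than in mantle skin, with rim cells as circles, the automated and manual cups as squares and diamonds, and skin as triangles. In the higher runs the cups lie at or above rim cells for most genes, and in the lower runs the cups lie nearer to skin than to rim cells for most genes.

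The values at the edge of the rule were close together. Just inside it among higher genes were LOC106883219, with 54.3 CPM in rim cells and 12.8 CPM in skin (log2 ratio 2.006), and LOC106875647, with 12.3 CPM in rim cells and 2.30 CPM in skin (2.008). Just outside it were LOC106881088, with 95.8 CPM in rim cells and 23.2 CPM in skin (1.9997), and LOC106873692, with 413 CPM in rim cells and 102 CPM in skin (1.999). Among lower genes, LOC106870394 and LOC106879866 (38.0 CPM in rim cells and 156 CPM in skin, log2 ratio -2.008) were just inside. LOC106882005 (11.2 CPM in rim cells and 47.7 CPM in skin, log2 ratio -1.998) and LOC106879744 (19.2 CPM in rim cells and 79.5 CPM in skin, log2 ratio -1.995) were just outside.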

How the data were processed

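Messenger RNA of 16 samples was sequenced, 8 libraries on 2 lanes each. Per the submitters' processing notes, reads were trimmed with Trim Galore and assigned with kallisto. Their versions, the genome build and the annotation were not given in the sources used here. A single deposited table has 1 column per library, so the lanes had been merged, in a way the labels leave unstated. Values are log2(CPM + 1) as deposited by the authors, a unit read from the values: inverted columns sum to 1000000. All values were whole multiples of the value of 1 read (100% within 0.01 reads), from which reads were recovered; counts made by kallisto need not be whole, so rounding before deposit is possible. The planned design spoke of CPM, and the log2 values were inverted to follow it.

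Levels were compared in Python 3.11.15 with numpy 2.4.6, pandas 2.3.3 and scipy 1.17.1. No column was left unused. A gene entered with at least 10 CPM in rim cells or skin and was called at 4-fold with a pseudocount of 1 CPM, and the cup classes used 4-fold and 2-fold in both cup libraries. Ratios on the pseudocount scale understate changes of low genes, so counts at 16-fold and 64-fold are also given without it. Wilson, Poisson and Clopper-Pearson intervals (95%) cover counting error only. Since the calls rest on the values shown, ratios of called genes are descriptions. Genes were named by rule: in each direction and class, the 5 with the largest log2 ratio and the 3 of highest level, which gave 41 genes, plus 2 genes inside and 2 outside the threshold. The comparison, the rule and the lists were chosen with earlier results of these data known.

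Of the 15842 identifiers, 14305 were found in the reference table of assembly ASM119413v2 and 1537 were not; 799 of the 870 genes were found. That table gives no functional names for them, so the planned gene name lists, protein patterns and cell type markers were not applied, and no sequence is shown. Alternatives were other pseudocounts (0.1 and 5 CPM), floors (none and 50 CPM) and thresholds (2-fold and 16-fold), median-of-ratios and TMM scaling (computed in Python), thinning of rim and cup reads to 4782744, a counting bound, and leaving out either cup library.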

Additional observations from a re-analysis of the deposited data

How the results depend on the processing

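With 552 higher and 318 lower genes, 235 and 25 of which followed the cup while 158 and 215 did not, these 6 counts stayed within 1.5 times with a pseudocount of 0.1 CPM, no floor, either scaling, thinned reads and a counting bound of 4-fold. Within that range, higher followers still ran from 189 to 309 and higher non-followers from 115 to 229. As shares of the higher genes, these ran from 33.7% to 51.5% and from 22.7% to 32.9%. Leaving out either cup library gave 245 to 260 higher followers and 28 lower followers. Other settings moved the 6 counts, through fewer or more genes past the rule and, for the thresholds, through changed class limits too. Counts below are in the order higher, lower, higher followers, lower followers, higher non-followers, lower non-followers. A floor of 50 CPM gave 204, 156, 100, 11, 79 and 108. A 2-fold threshold gave 1374, 741, 467, 166, 905 and 564, and a 16-fold one 122, 140, 78, 2, 1 and 103, so that higher genes were 46.6% of those called, against 63.4% at 4-fold. The split into classes thus depended on the threshold. Of the higher genes 65.9% did not follow at 2-fold and 0.820% at 16-fold, against 28.6% at 4-fold. These 3 shares are unlike measures: no part-way class remains at 2-fold, while at 16-fold it spans 2-fold to 16-fold. The limit for following moves with the threshold, and followers were 34.0% of the higher genes at 2-fold, 42.6% at 4-fold and 63.9% at 16-fold. Of the lower genes 22.4% followed at 2-fold and 1.43% at 16-fold, against 7.86% at 4-fold. With 5 CPM as pseudocount there were 285 higher genes, 117 and 16 followers and 93 higher non-followers. When 2-fold in both cups sufficed, 394 higher and 103 lower genes followed. The non-follower counts and the 205 repeats of named genes' ratios under 5 settings were added after the data were seen; none of the 205 changed sign and 2, both of LOC106870394, fell under 4-fold. Scaling shifted log2 CPM relative to skin by -0.09 (median-of-ratios) and -0.05 (TMM) in rim cells and by up to 0.17 and 0.16 in the automated cup. With the pseudocount, log2 ratios of the 41 named genes moved by -0.11 to 0.01 and by -0.07 to 0.01. The lower 95% limit of the ratio reached 4-fold for 447 of 552 higher and 299 of 318 lower genes. Of the other 105 higher genes 89 had 10 skin reads or more, and the median ratio of the 105 was 5.26. None had 3 skin reads or fewer, which was set in advance: at 10 CPM or more in rim cells, such genes have a limit above 4-fold. No paired analysis was possible because each tissue has 1 library and no test was made. Variation between animals, dissections and libraries was not measured.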
